A study of Rattus norvegicus with 8 samples.

Results

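The serotonin receptor genes of the rat were described in cultured hippocampus, for the 10 receptor genes Htr1a, Htr1b, Htr2a, Htr2c, Htr3a, Htr4, Htr5a, Htr5b, Htr6 and Htr7 out of 14217 genes that the array names with a single symbol. Members were taken as every probe set, a group of short probes for 1 transcript, whose single gene symbol is one of these names, which gave 17 probe sets among 31042. The family was selected on the intensities of Htr5b in the control arrays, lower in CA3 than in CA1. Differences between the control groups of the fields are therefore given for all members as a description, with no p-value, and the count of members past the threshold in that contrast is printed only beside that of all probe sets.

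Serotonin reaches the hippocampus through axons from the raphe nuclei of the brainstem and acts there on receptors of several classes. All but one class are G protein-coupled. The 5-HT1 receptors and the receptor of Htr5a lower cyclic AMP through inhibitory G proteins. The 5-HT2 receptors activate phospholipase C, and the 5-HT4, 5-HT6 and 5-HT7 receptors raise cyclic AMP. The 5-HT3 receptor is a cation channel opened by serotonin, and in the forebrain it is known from interneurons. Htr5b is intact in rodents, whereas its human counterpart carries stop codons and makes no working receptor.

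RNA came from hippocampal slice cultures of the rat, thin explants kept alive in a dish, with 15 dissected cultures pooled per array and a labelled time of 7 days. The groups were 1 CA3 lesion array, 3 CA3 control arrays, 1 CA1 lesion array and 3 CA1 control arrays, where CA1 and CA3 are the main pyramidal cell fields. The labels give neither strain nor age, nor the kind of lesion, nor what the days were counted from, and nothing shows that arrays of a group came from separate animals, so the p-values below reflect array-to-array spread, which may be technical. As the tissue is a slice culture without the raphe, the cell bodies of serotonin neurons are not part of it.

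Each deposited value is a signal intensity on a linear scale, and log2 values are log2(intensity + 16), on which the change of dim probe sets is understated. Array medians ran from 559.6 to 814, and the highest and the lowest mean correlation with the other arrays was 0.889 and 0.846. CA1 control 2 had both the highest median and that lowest correlation. The ratio of 3′ to 5′ Gapdh probe sets, a sign of RNA quality, was 5.23 in the CA3 lesion array against 3.84, 3.75 and 3.93 in CA3 controls 1 to 3, and 4.65 in the CA1 lesion array against 3.71, 4.98 and 4.9999 in CA1 controls 1 to 3, and its part in the results was not tested. Beside the labelled fields were set 7 measured markers of CA1 pyramidal neurons, each lower in all CA3 than in all CA1 control arrays. Among all probe sets 8.56% were lower in this way and 4.72% were higher. The marker lists were chosen with earlier results of these data known, so they are no independent check of the labels. On CA3 arrays the median log2 value of the CA1 markers relative to each gene's mean was -1.10 (lesion) and -1.59, -1.17 and -1.85 (controls 1 to 3). On CA1 arrays that median was 1.11 (lesion) and 1.65, 1.56 and 0.91 (controls 1 to 3). The 9 measured markers of CA3 pyramidal neurons separated the control groups less fully. Of these, 4 were higher in all CA3 than in all CA1 control arrays, 1 was lower and 4 overlapped. Their medians ran from 0.09 (control 3) to 0.68 (control 1) on CA3 arrays. On CA1 arrays they ran from -0.68 (control 3) to -0.11 (control 2). Microglia markers stood at 1.61 in the CA3 lesion array against -1.78, -1.25 and 1.40 in the CA3 controls, and at 1.88 in the CA1 lesion array against -2.08, -1.04 and 1.36 in the CA1 controls. In bulk RNA, fewer cells of a type and less RNA per cell cannot be told apart.

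RefSeq's promoter table for the GRCr8 assembly held 6 of the 10 genes, and the start regions of Htr5b and Htr2c are shown because these were the receptors with a bright probe set that was lower in all CA3 than in all CA1 control arrays. Each window holds 250 bases before and 50 after the annotated start, written 5′ to 3′ in the direction of the gene. The Htr5b window lies at chr13:35252537-35252836 on the minus strand and the Htr2c window at chrX:115452940-115453239 on the plus strand. Capitals mark the match to CCAAT, which in both windows lies on the strand opposite to the gene and so reads ATTGG.
Htr5b: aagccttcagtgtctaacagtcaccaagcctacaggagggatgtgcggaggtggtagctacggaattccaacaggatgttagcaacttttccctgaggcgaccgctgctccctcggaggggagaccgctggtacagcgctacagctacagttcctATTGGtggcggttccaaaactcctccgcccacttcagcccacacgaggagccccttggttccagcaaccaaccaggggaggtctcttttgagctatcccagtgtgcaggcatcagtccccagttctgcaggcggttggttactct
Htr2c: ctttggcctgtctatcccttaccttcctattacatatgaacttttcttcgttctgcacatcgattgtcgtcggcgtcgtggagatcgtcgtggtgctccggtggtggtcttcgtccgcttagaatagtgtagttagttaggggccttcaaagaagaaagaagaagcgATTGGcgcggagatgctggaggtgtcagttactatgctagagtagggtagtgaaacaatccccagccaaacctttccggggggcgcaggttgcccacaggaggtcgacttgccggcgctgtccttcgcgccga

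Motifs were searched on both strands of these windows and of all 33469 promoters of the same length. CCAAT occurred once in the Htr5b window and once in the Htr2c window, and 37.5% of all promoters held it. The GC box GGGCGG was found once in the Htr5b window and not in that of Htr2c, with a share of 33.1% among all promoters. The E-box CANNTG, a pattern read by basic helix-loop-helix factors, was found once in the Htr2c window and not in that of Htr5b, with a share of 72.1%. Neither window held TATAAA (14.2% of promoters), the POU factor octamer ATGCAAAT (1.78%) or the cyclic AMP response element TGACGTCA (1.83%). The windows were 57.0% and 53.7% G or C for Htr5b and Htr2c, against a median of 51.7% over all promoters.

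A filter on low values left out probe sets whose mean log2 value lay under the 40th percentile of all probe sets, which was 8.35. Of the 17 receptor probe sets 5 passed, from 4 genes: Htr5b, Htr1b, Htr3a and both probe sets of Htr2c. The other 12 were not tested, and the genes Htr1a, Htr2a, Htr4, Htr5a, Htr6 and Htr7 had no probe set past the filter. Of the probe sets nearest to this limit, that of Htr3a lay inside it with a mean log2 value of 8.92 and 1 of Htr7 lay outside it with 8.01. Detection calls were not used here, so dim signal cannot be told from background.

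**Figure D1:**
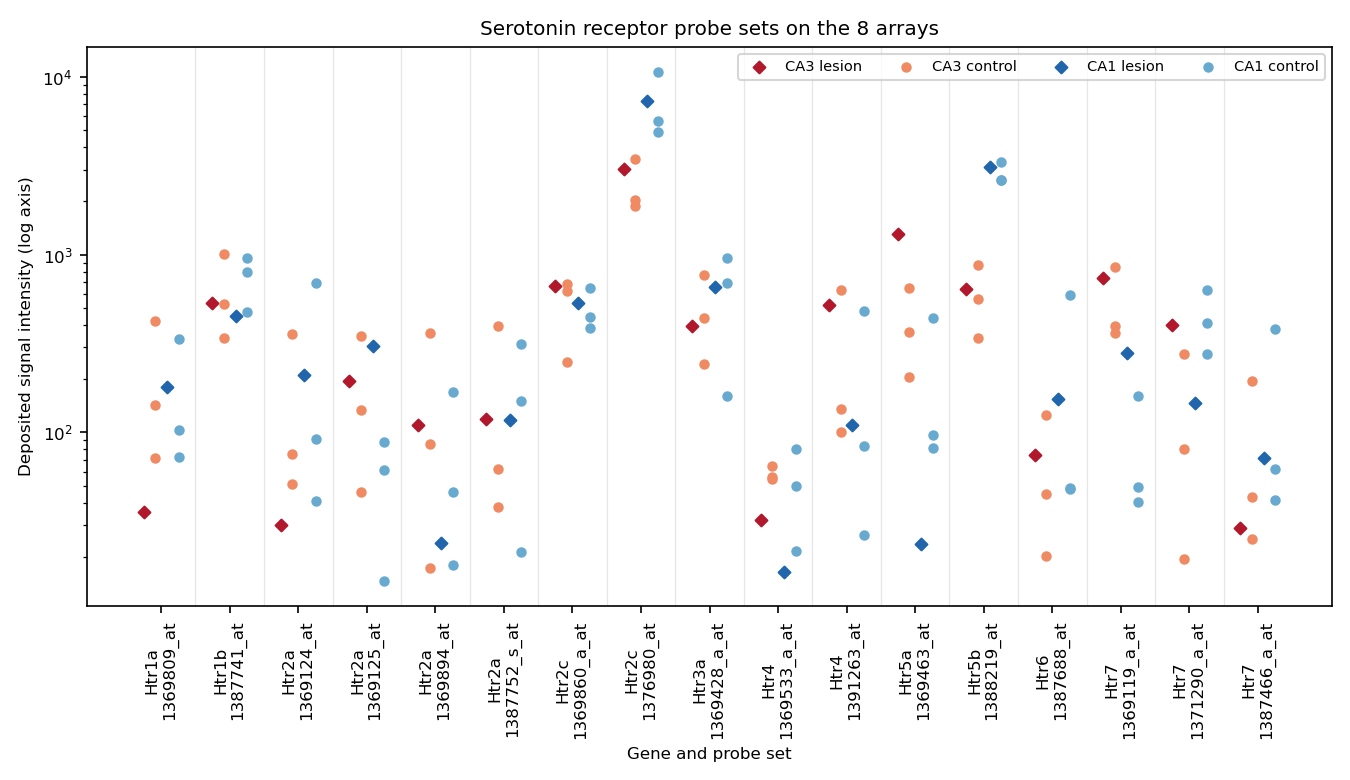
Deposited signal intensity on a log axis for the 17 serotonin receptor probe sets, with a diamond for each lesion array and a circle for each of 3 control arrays per field. Levels of different probe sets are not comparable; within Htr5b (1388219_at) and Htr2c (1376980_at) all CA3 arrays lie below all CA1 arrays, while for most dim probe sets the groups overlap.

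Htr5b, a receptor of the 5-HT5 class, separated the fields on every array. Its probe set 1388219_at had an intensity of 639 in the CA3 lesion array, 869.7, 561 and 340.4 in CA3 controls 1 to 3, 3100.1 in the CA1 lesion array and 2636, 3297 and 2642 in CA1 controls 1 to 3. All 4 CA3 arrays lay below all 4 CA1 arrays, and both lesion arrays lay within the range of the controls of their own field. The control means were 590.4 ± 266 in CA3 and 2858 ± 380 in CA1 (SD, n = 3 arrays each), and on the log2 scale Htr5b was 5.04-fold lower in CA3 controls (-2.33). Beside the microglia markers, which were low in control 1 and high in control 3 of each field, Htr5b had 869.7 in CA3 control 1 and 340.4 in CA3 control 3, and 2636 in CA1 control 1 and 2642 in CA1 control 3. Markers of neurons in general had a median relative log2 value of 0.67, 0.43 and -0.10 in CA3 controls 1 to 3. In CA1 controls 1 to 3 that median was 0.10, -0.01 and -0.50. The part of microglia or of neuron content in the Htr5b values was not tested.

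The control contrast served to choose Htr5b, so this difference supports nothing further. In the fit over all probe sets, 98 of 18625 passed in that contrast, which is 0.526% (0.285% higher and 0.242% lower in CA3), and Htr5b was the 1 receptor probe set among them. With the replicate block, where more probe sets passed in all as given below, Htr2c 1376980_at passed as well as Htr5b. Htr5b did not pass without CA1 control 1, 2 or 3, without CA3 control 2, or without control 1 or control 3 of both fields. Nor did Htr5b pass without an intensity trend in the variances. With single arrays left out its difference stayed negative and ran from -2.66 without CA3 control 1 to -2.00 without CA3 control 3.

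The lesion arrays had no part in that choice and repeated the order of the fields for Htr5b. The value was 639 in the CA3 lesion array against 3100.1 in the CA1 lesion array, 4.75-fold lower in CA3, a log2 difference of -2.25 ± 0.63 (SE) with a 95% interval of -3.66 to -0.84. In limma the unadjusted p was 0.00513, and after Benjamini-Hochberg adjustment over 18625 probe sets it did not pass (limma adjusted p = 0.508, in a range of 0.227 to 0.820 over the alternatives). No probe set passed in this contrast (0 of 18625, 0%), while 943 had an unadjusted p under 0.05. Since each field has 1 lesion array, its spread was borrowed from the control arrays, and the spread of Htr5b was taken from the controls in which it had been picked, so this p may be too small. Htr5b did not pass in this contrast under any of the alternatives.

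**Figure D2:**
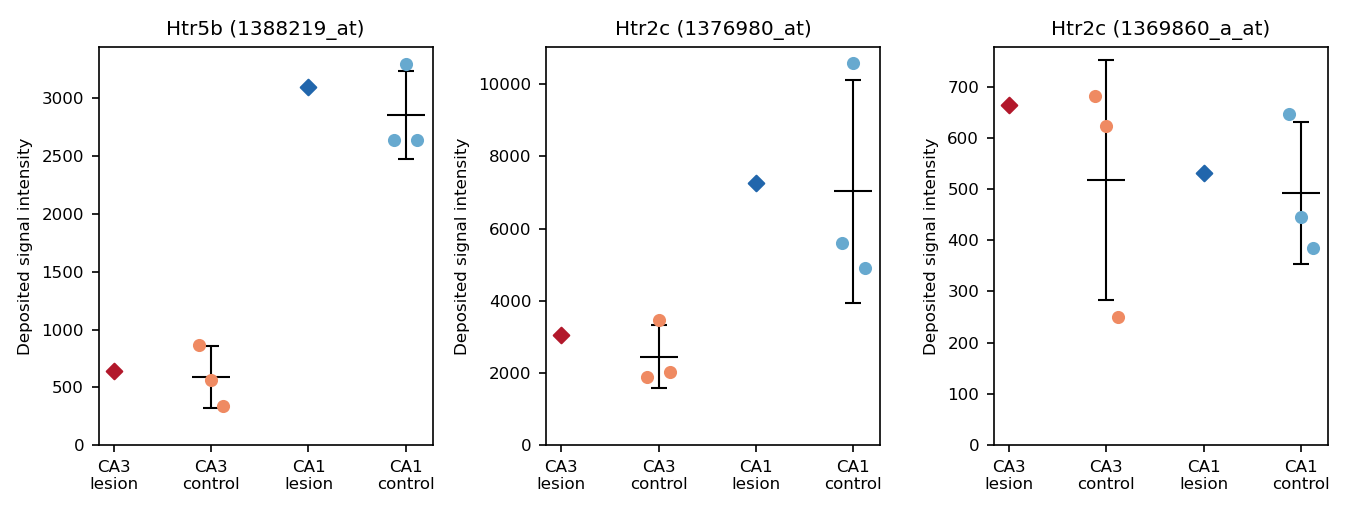
Deposited signal intensity on a linear axis from 0 for Htr5b (left) and the 2 probe sets of Htr2c (middle and right), with 1 diamond per lesion array, 1 circle per control array and a bar for the control mean ± SD (n = 3). Htr5b lay at 340.4 to 869.7 on the CA3 arrays and 2636 to 3297 on the CA1 arrays, Htr2c 1376980_at at 1874 to 3466 and 4911 to 10581, and Htr2c 1369860_a_at overlapped between the fields.

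The genes most like Htr5b over the 8 arrays were taken by Pearson correlation of log2 values, one probe set per gene, among 10843 other genes past the filter. They were Itpka, a kinase of inositol trisphosphate (r = 0.986), the adhesion receptor Adgrl2 (0.980), the small GTPase Rab26 (0.979), the adaptor Grb14 (0.976), Fibcd1 (0.975), Camkv (0.973), Zmat4 (0.971) and Gpr161 (0.970). These are descriptions over 8 arrays that fall into separate groups by field, and all 8 genes were lower in the CA3 arrays. Fibcd1 and Gpr161 also stood on the list of CA1 pyramidal markers used above. Itpka averaged 9592 ± 2425 in CA3 controls and 35390.3 ± 4072 in CA1 controls, with 9164 in the CA3 lesion array and 31465 in the CA1 lesion array. Fibcd1 averaged 719 ± 394 in CA3 controls and 9451 ± 1402 in CA1 controls (SD, n = 3 each).

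**Figure D3:**
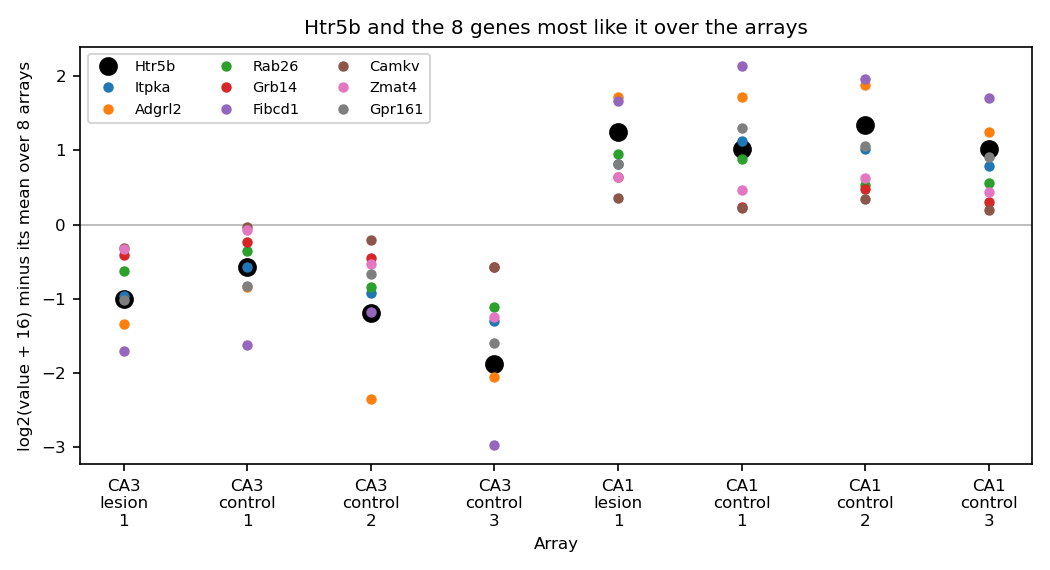
Log2(intensity + 16) minus its mean over the 8 arrays for Htr5b (large black points) and the 8 genes most correlated with it, by array. Every one of these genes lies below its mean on the 4 CA3 arrays and above it on the 4 CA1 arrays, and Htr5b is lowest on CA3 control 3 and highest on CA1 control 2.

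Htr2c, a phospholipase C-coupled receptor best known for its abundance in the choroid plexus, gave different answers with its probe sets. The brighter one, 1376980_at, had an intensity of 3039 in the CA3 lesion array, 1874, 3466 and 2013 in CA3 controls 1 to 3, 7263 in the CA1 lesion array and 5604, 10581 and 4911 in CA1 controls 1 to 3. All CA3 arrays lay below all CA1 arrays for this probe set. Control means were 2451 ± 882 in CA3 and 7032 ± 3093 in CA1 (SD, n = 3 each), a log2 difference of -1.49, which ran from -1.76 without CA3 control 2 to -1.15 without CA1 control 2. In the lesion arrays the log2 difference of CA3 minus CA1 was -1.25 ± 0.57 (SE), with an interval of -2.52 to 0.02 and limma adjusted p = 0.9999.

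The dimmer Htr2c probe set, 1369860_a_at, did not separate the fields. It had 663 in the CA3 lesion array and 681, 623 and 249.7 in the CA3 controls, against 532 in the CA1 lesion array and 648, 444 and 384 in the CA1 controls. The log2 difference was -0.02 between controls and 0.31 ± 1.02 (SE) between lesion arrays, with an interval of -1.96 to 2.58. Over the 8 arrays the log2 values of the Htr2c probe sets had a Pearson correlation of 0.053. The array lists different source sequences for them, and whether they read the same transcripts was not tested.

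Markers of choroid plexus and ependyma, cells outside the pyramidal fields, were set beside the brighter Htr2c probe set. Their summed intensity over 8 genes was 19462 in the CA3 lesion array and 10334 to 28047 in CA3 controls, against 18081 in the CA1 lesion array and 10159.5 to 17124.5 in CA1 controls. Ttr, the transthyretin gene that defines choroid plexus epithelium, had 1062 in the CA3 lesion array and 2087, 2767 and 11825 in CA3 controls, against 988 in the CA1 lesion array and 654, 1052 and 929.8 in CA1 controls. Of the 8 markers 4 passed the filter. Ttr was higher in all CA3 than in all CA1 control arrays, and 6 markers overlapped. The remaining one, the transcription factor gene Otx2, was under the filter and was lower in all CA3 controls, as Htr2c was. Among all probe sets 4.72% were higher and 8.56% lower in this way. Otx2 had 37.5, 25.3 and 133 in CA3 controls against 618, 725 and 521 in CA1 controls, but 79.7 in the CA3 lesion array and 68.8 in the CA1 lesion array. The part of these cells in the Htr2c values was not tested. The genes most like this Htr2c probe set over the 8 arrays were Enkd1 (r = 0.985), Garnl3 (0.967) and the transcription factor Etv1 (0.958). Etv1 averaged 1754 ± 464 in CA3 controls and 3974 ± 511 in CA1 controls (SD, n = 3 each).

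Htr1b, which encodes an inhibitory receptor found on axon terminals, did not separate the fields. Its intensity was 533 in the CA3 lesion array and 1013, 529.6 and 341 in CA3 controls 1 to 3, against 449 in the CA1 lesion array and 478, 799.95 and 957 in CA1 controls 1 to 3. The CA1 lesion array lay just under all CA1 controls and the CA3 lesion array lay among the CA3 controls. The log2 difference between CA3 and CA1 controls was -0.32, and without CA3 control 3 it was 0.03. Homer1, a scaffold gene of excitatory synapses, was most like Htr1b over the arrays (r = 0.926), followed by the sodium-calcium exchanger Slc8a3 (0.923) and Rbsn (0.921).

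Htr3a, the channel-forming subunit of the 5-HT3 receptor, varied more within a field than between fields. It had 397 in the CA3 lesion array and 241, 768 and 437 in the CA3 controls, against 658 in the CA1 lesion array and 693, 953 and 161 in the CA1 controls. The log2 difference between control groups was -0.14, and it ran from -0.88 without CA1 control 3 to 0.35 without CA1 control 2. Interneuron markers, which include cells that carry this receptor, had a median relative log2 value of -0.33 in the CA3 lesion array and -0.09, -0.31 and -0.42 in the CA3 controls, against 0.20 in the CA1 lesion array and 0.55, 0.62 and -0.15 in the CA1 controls. CA1 control 3 was lowest of the CA1 arrays in both Htr3a and these markers. Of the CA3 arrays, CA3 control 1 was lowest in Htr3a but highest in these markers. The part of interneurons in the Htr3a values was not tested. Of the 12 interneuron markers measured, 4 (Vip, Cck, Sst and Adarb2) were lower in all CA3 than in all CA1 control arrays. Among all probe sets 8.56% were lower in this way and 4.72% were higher. Adarb2 was under the filter. The other 8 markers overlapped between the fields, as Htr3a did. Xrcc5 (r = 0.958), Reps2 (0.953) and Cyren (0.953) were most like Htr3a.

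The receptors under the filter gave no pattern that all their probe sets shared. Htr7, a cyclic AMP-raising receptor, had 3 probe sets that disagreed. The array lists a different source sequence for each, and whether they read the same transcripts was not tested. Probe set 1369119_a_at had 734 in the CA3 lesion array and 852, 398 and 361 in the CA3 controls, against 281 in the CA1 lesion array and 49.0, 40.4 and 160.4 in the CA1 controls, so that it was higher in all CA3 arrays (2.57 on the log2 scale between controls). Probe set 1371290_a_at ran the other way in the controls, with 19.2, 274 and 80.3 in CA3 against 276, 414 and 633 in CA1 (-2.12 on the log2 scale, and -1.37 without CA3 control 1). In the lesion arrays the same probe set had 403 in CA3 and 146 in CA1, opposite to its control difference. The third, 1387466_a_at, overlapped between groups at 25.2 to 383, and the first pair had a correlation of -0.53 over the 8 arrays.

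Htr5a, the close relative of Htr5b, did not repeat its pattern. Its probe set 1369463_at had 1299.8 in the CA3 lesion array and 648, 203 and 366 in CA3 controls, against 23.6 in the CA1 lesion array and 438, 81.4 and 96.5 in CA1 controls. The lesion array was the highest of the 4 CA3 arrays and the lowest of the 4 CA1 arrays. The control groups overlapped, with a log2 difference of 1.16. With the filter removed, Htr5a did not pass in any of the 5 contrasts that involve a lesion array (limma adjusted p = 0.958 to 0.9999).

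Htr1a, the inhibitory receptor that opens potassium channels in pyramidal cells, had 35.7 in the CA3 lesion array and 71.8, 422 and 143 in CA3 controls, against 181 in the CA1 lesion array and 335, 104 and 72.4 in CA1 controls. The 4 probe sets of Htr2a, a phospholipase C-coupled receptor, ranged from 14.6 to 689 over the 8 arrays, with correlations of 0.11 to 0.75 between them. Htr4, which raises cyclic AMP, ranged from 26.5 to 630.1 with one probe set and from 16.4 to 80.1 with the other. Htr6, which also raises cyclic AMP, had a median of 61.4, with 589 in CA1 control 2 and 20.0 in CA3 control 3 at the ends of its range. For these genes the control groups of the fields overlapped in every probe set.

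Over all 17 probe sets, CA3 control arrays lay entirely below CA1 control arrays in 3 (Htr5b, Htr2c 1376980_at and Htr7 1371290_a_at) and entirely above in 1 (Htr7 1369119_a_at). Among all 31042 probe sets these shares were 8.56% and 4.72%, and since the control contrast was used to choose the family, nothing is read from the count. Of the single arrays, CA3 control 1 was the highest of the 8 arrays in 7 receptor probe sets and CA1 control 2 in 6, while these arrays were the highest in 13.8% and 20.8% of all probe sets.

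Lesion and control arrays were compared for the receptors in 1 linear model over all 8 arrays, and no receptor changed past the threshold. Over both fields the log2 difference of lesion minus control was 0.17 ± 0.37 for Htr5b (interval -0.65 to 0.98), 0.25 ± 0.33 for Htr2c 1376980_at (-0.49 to 0.98) and 0.31 ± 0.59 for Htr2c 1369860_a_at (-1.01 to 1.62). It was -0.37 ± 0.55 for Htr1b (-1.60 to 0.86) and 0.16 ± 0.77 for Htr3a (-1.55 to 1.87), each with its SE over 2 lesion and 6 control arrays and a 95% interval. The limma adjusted p-values of these 5 probe sets ran from 0.900 for Htr2c 1376980_at to 0.980 for Htr3a. No probe set passed in this contrast (0%), and 1193 of 18625, but none of the receptors, had an unadjusted p under 0.05.

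**Figure D4:**
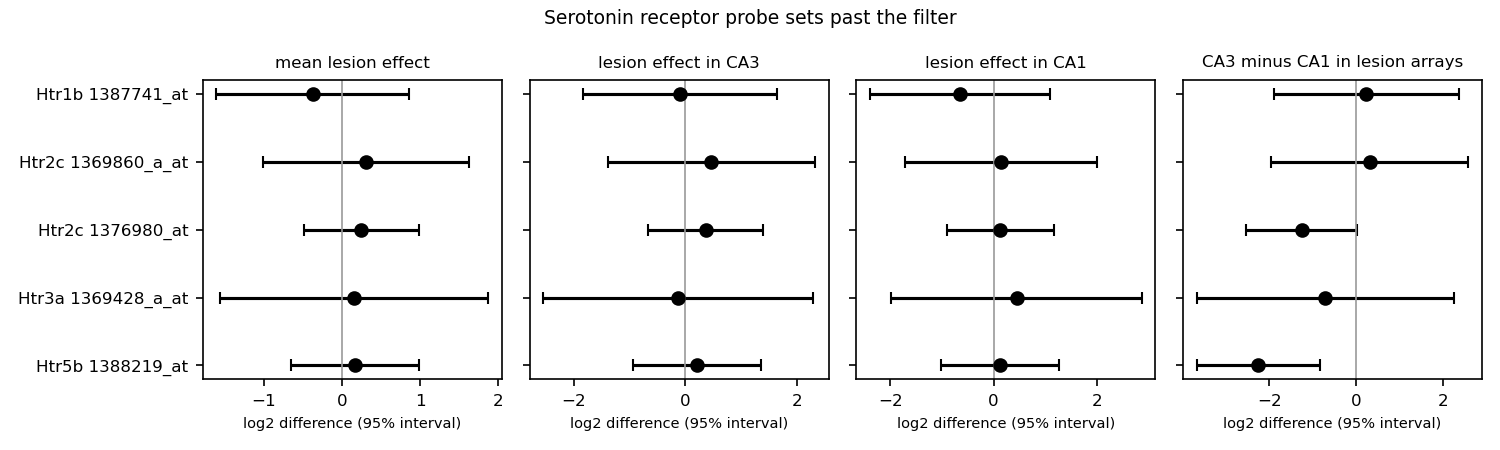
Log2 difference with its 95% interval from limma for the 5 serotonin receptor probe sets past the filter: lesion minus control over both fields, in CA3 and in CA1, and CA3 minus CA1 in the lesion arrays. In the 3 lesion panels every interval includes 0, and in the last panel only that of Htr5b (-3.66 to -0.84) does not.

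Within the fields the lesion effect was likewise not detected for any receptor. In CA3 the log2 difference was 0.21 ± 0.52 for Htr5b, 0.36 ± 0.47 and 0.47 ± 0.84 for the brighter and dimmer Htr2c probe sets, -0.09 ± 0.78 for Htr1b and -0.13 ± 1.09 for Htr3a (SE, 1 lesion and 3 control arrays). In CA1 it was 0.12 ± 0.52 for Htr5b, 0.13 ± 0.47 and 0.14 ± 0.84 for the Htr2c probe sets, -0.65 ± 0.78 for Htr1b and 0.44 ± 1.09 for Htr3a. No probe set passed in limma in either field (0%), and 871 in CA3 and 676 in CA1 had an unadjusted p under 0.05. The differences of the fields share no control arrays, but their spread was estimated jointly from all 6 control arrays, so each SE is the same in both fields. Each contrast also shares its controls with the contrast that chose Htr5b. In CA3 the lesion array lay above all its controls in 2 of the 17 receptor probe sets (Htr5a and Htr7 1371290_a_at) and below them in 3 (Htr1a, Htr2a 1369124_at and Htr4 1369533_a_at), against 31.9% and 21.4% of all probe sets (53.3% either way). In CA1 it lay above all its controls in 2 (Htr2a 1369125_at and Htr7 1369119_a_at) and below them in 4 (Htr1b, Htr4 1369533_a_at, Htr5a and Htr7 1371290_a_at), against 19.6% and 27.6% (47.2% either way). Htr4 1369533_a_at was below its controls in both fields, and no receptor was above them in both, against 6.81% and 7.25% of all probe sets.

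The difference between the lesion effects of the fields was 0.09 ± 0.73 for Htr5b (interval -1.54 to 1.71), 0.23 ± 0.66 for Htr2c 1376980_at, 0.33 ± 1.18 for Htr2c 1369860_a_at, 0.56 ± 1.11 for Htr1b and -0.57 ± 1.54 for Htr3a, with limma adjusted p = 0.9999 for each. No probe set passed in this contrast (0%), while 576 reached an unadjusted p under 0.05. Over all 17 receptor probe sets 10 were higher and 7 lower in the mean lesion effect, with a median of 0.16, against a median of 0.02 and 51.3% higher among all probe sets. The 12 probe sets under the filter have no interval.

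Other genes of serotonin signalling were taken as 6 lists: serotonin synthesis, transport and breakdown, the remaining receptor genes, G protein subunits, adenylyl cyclases and phospholipases C, channels gated through the receptors, and receptor partners. Of 69 listed genes 58 had a probe set with a single symbol and 40 passed the filter. In limma 0 of the 40 passed in any of the 6 contrasts, and 1 to 4 (2.5% to 10%) had an unadjusted p under 0.05, against 3.09% to 8.31% of all probe sets tested. In the control contrast 0.526% of all probe sets passed, and in the other 5 none did. Between CA3 and CA1 controls 23 were higher and 17 lower, with a median of 0.04 against -0.04 for all probe sets tested. In the mean lesion effect 20 were higher and 20 lower, with a median of -0.0029 against 0.02.

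The remaining receptor genes Htr1d, Htr1f, Htr2b and Htr3b were all under the filter. Htr3b, the partner subunit of Htr3a, had 109.6 in the CA3 lesion array and 19.6, 25.6 and 37.8 in CA3 controls, against 443 in the CA1 lesion array and 137, 446 and 40.2 in CA1 controls. The plasma membrane serotonin transporter gene Slc6a4, which marks serotonin neurons, was also under the filter, at 58.7 to 573 over the arrays. Enzymes that break serotonin down were measured, and Maoa had 4015 in the CA3 lesion array and 4139, 4056 and 4564 in CA3 controls, against 4039 in the CA1 lesion array and 3292, 3475 and 4281 in CA1 controls.

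The signalling genes with the smallest p in each contrast did not pass and are given for their size. The adenylyl cyclase gene Adcy2 had 5139 in the CA3 lesion array and 7367, 8148 and 6436 in CA3 controls, against 13146.5 in the CA1 lesion array and 13752, 16374 and 11071 in CA1 controls. It was lower in all CA3 arrays, with a log2 difference of -0.90 ± 0.19 between controls (SE, limma adjusted p = 0.108) and -1.35 ± 0.34 between lesion arrays (adjusted p = 0.372). The scaffold gene Mpdz had a log2 difference of 0.63 ± 0.19 between CA3 and CA1 controls (SE, limma adjusted p = 0.319). Adcy5, another adenylyl cyclase, had 47.2 in the CA3 lesion array and 624, 502 and 655 in CA3 controls, against 1079 in the CA1 lesion array and 1776, 856 and 1027 in CA1 controls. Its lesion effect was -3.26 ± 0.68 in CA3 and -1.68 ± 0.48 over both fields (SE, limma adjusted p = 0.320 and 0.771), its CA3 minus CA1 difference was -4.12 ± 0.83 in the lesion arrays (adjusted p = 0.257), and its lesion effects differed by -3.16 ± 0.96 between the fields (adjusted p = 0.9999).

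S100a10, which encodes the adaptor p11 that binds the receptors of Htr1b and Htr4, had 13023 in the CA3 lesion array and 17145.5, 17511 and 33888 in CA3 controls, against 13659 in the CA1 lesion array and 28519, 26273 and 23068 in CA1 controls. Both lesion arrays lay below all controls of their field. The log2 difference was -0.83 ± 0.25 over both fields (SE, limma adjusted p = 0.771), -0.73 ± 0.36 in CA3 and -0.92 ± 0.36 in CA1 (adjusted p = 0.937 and 0.999). Among all probe sets 6.81% lay below all controls in both fields. Ddc, the decarboxylase of serotonin and dopamine synthesis, had 568 in the CA3 lesion array and 389, 348 and 261 in CA3 controls, against 40.02 in the CA1 lesion array and 418, 987 and 472 in CA1 controls. Its lesion effect was -3.41 ± 1.03 in CA1 and differed by 4.17 ± 1.46 between CA3 and CA1 (SE, limma adjusted p = 0.999 and 0.9999).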

How the data were processed

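The deposited table holds 1 linear signal intensity per probe set and array. Its 2% trimmed means were nearly the same on all 8 arrays, so the authors' values appear scaled to a common level; the software is not given in the sources used here. The number of arrays limits the precision. Of 31042 probe sets without controls, the platform annotation gives 20826 a single gene symbol, 436 several and 9780 none. Intensities were turned into log2(value + 16). Probe sets with a mean at or above the 40th percentile (18625) entered 1 limma model (limma 3.58.1, R 4.3.3) with 1 coefficient per group and an intensity trend, 4 residual degrees of freedom, Benjamini-Hochberg adjustment over all of them and a threshold of 0.05. The fit was run on simulated data with noise independent between arrays, so that run does not cover differences shared by same-numbered arrays. The members and lists were chosen with earlier results of these data known. Named genes are the members, the 8 genes most correlated with Htr5b, 3 for each other tested member, and the 2 listed signalling genes with the smallest p per contrast; Ttr, Otx2, Vip, Cck, Sst, Adarb2, Maoa, Slc6a4 and Htr3b were named from the lists after their values were seen. Alternatives were quantile normalisation, other pseudocounts and filters, no trend, a replicate block and leaving arrays out.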

Additional observations from a re-analysis of the deposited data

How the results depend on the processing

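No receptor passed in any contrast that involves a lesion array under any alternative, and the lowest limma adjusted p of a receptor there was 0.1998. The count of probe sets that differed between CA3 and CA1 controls, 98, was 0 with no intensity trend, 358 with the replicate block, 5 without control 1 of both fields and 24 to 104 with single arrays left out. For the mean lesion effect the count of 0 became 697 with the block, 182 without control 3 of both fields and 0 to 1 with single arrays left out. For the lesion effect in CA3 it became 310 with the block, 6 without control 3 of both fields, and 5 with quantile normalisation and also with a pseudocount of 1, and for that in CA1 258 with the block and 3 without control 3 of both fields. For CA3 minus CA1 in lesion arrays it became 39, 6 and 0 to 1 in the same order as for the mean lesion effect. The replicate numbers were not used to pair the arrays in the main model, and the labels do not say what they stand for. Same-numbered CA3 and CA1 controls had correlated deviations of 0.16, 0.060 and 0.31, and each correlated best with its own number. Differently numbered ones ran from -0.20 to 0.056. Microglia markers rose from control 1 to control 3 in both fields. The unpaired model counts such a shared difference as spread. Both lesion arrays carry number 1, so the block also ties the lesion differences to control 1, where the microglia markers were lowest. It moved the differences themselves: Htr5b in CA1 was 0.12 in the main model and -0.14 with the block. The counts in the lesion contrasts depend on this choice, and the part of each in them was not tested.

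Signs of small lesion differences changed, and the cause was not tested. In the mean lesion effect Htr5b was -0.018 with quantile normalisation, -0.10 with the block, -0.027 without control 3 of both fields and -0.00034 to 0.33 with single arrays left out, Htr2c 1369860_a_at was -0.16 with the block, and Htr3a was -0.21 without control 3 of both fields and -0.21 to 0.40 with single arrays left out. In CA3 Htr5b was -0.14, -0.058, -0.13 and -0.13 to 0.53 under the same alternatives, Htr1b 0.32 without control 1 of both fields and -0.45 to 0.32 with single arrays left out, and Htr3a 0.020 with the block and -0.53 to 0.27 with single arrays left out. In CA1 Htr5b was -0.14 with the block. Without control 3 of both fields and with single arrays left out, Htr2c 1369860_a_at was -0.012 (-0.012 to 0.35, and -0.32 with the block), Htr2c 1376980_at -0.084 (-0.084 to 0.47) and Htr3a -0.30 (-0.30 to 0.93) in CA1. In the difference of the lesion effects Htr5b was -0.24 with quantile normalisation, -0.20 without control 3 of both fields and -0.25 to 0.41 with single arrays left out, Htr1b -0.000878 and Htr3a 0.18 without control 3 of both fields (Htr3a -1.05 to 0.17 with single arrays left out), Htr2c 1369860_a_at -0.23 with quantile normalisation and -0.12 to 0.58 with single arrays left out, and Htr2c 1376980_at -0.10 to 0.51 with single arrays left out. Between the lesion arrays Htr1b was -0.017 with quantile normalisation. With 1 lesion array per field, and most receptors dim, signal over background limits what could be detected.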
